A study of Homo sapiens with 32 samples.

Results

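Ethanol, the vehicle of the hormone treatments, was compared with cells sampled before treatment in 2 human prostate cancer cell lines. The 4 libraries, of 32 in the series, were taken by their labels, namely LNCaP and BicR cells with ethanol for 6 h and the same lines at 0 h. Each group held 1 library, and the pairs were formed by cell line. LNCaP is an androgen-responsive line. The labels give BicR, also a prostate cancer line, without saying what the name stands for. In all 4 groups the cells had been kept for days, before any treatment, in medium without phenol red and with charcoal- and dextran-treated serum, which is depleted of steroid hormones. No group here received androgen or antagonist. The study used these libraries beside others of both lines that received the androgen DHT (10 nM), the androgen receptor antagonist bicalutamide (1 uM) or both, for 6 h or 24 h, and beside a time course of LNCaP cells with the synthetic androgen R1881. The comparison asks what vehicle, handling and 6 h in culture change without androgen, as a baseline for early responses. These components cannot be told apart, because no library of cells left untreated for 6 h was analysed here.

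Cap analysis of gene expression (CAGE) traps the capped 5′ end of RNA, and the position of a tag is where an RNA began. Its readout is the use of a start site, and a gene with several promoters gives several values. Steroids are dissolved in ethanol, so that vehicle-treated cells carry the solvent, the handling and the elapsed time of hormone-treated cells but not the hormone. Adding medium or solvent can itself change transcription in cultured cells, and early-response genes are known to peak and fall back within hours.

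The start-site table held 13294 positions on hg19. It pairs no position with a gene name, and the gene tables used here are for another build, so sites are given by chromosome, position and strand. The deposited numbering counts from 0, as the names of 274 sites equal the start and 0 equal the end of their cluster in the R1881 table, and positions below were moved to count from 1. The libraries held 4535853 tags (LNCaP 0 h), 5742167 (LNCaP ethanol), 7212833 (BicR 0 h) and 6046123 (BicR ethanol). Levels are scaled RPM, tags scaled to a common total of tags in the table and by a library factor from the TMM method, and 3 tags correspond to 0.681, 0.511, 0.409 and 0.493 scaled RPM. The BicR ethanol library stood apart in makeup. Its tags in the table were 78.56% of the total that the deposited RPM values imply, against 84.9 to 85.5% in the other 3. Mitochondrial sites took 5.83% of its tags (95% Wilson interval 5.81 to 5.85%, for counting error only) against 3.96% at 0 h, while in LNCaP their share was 4.10% at 0 h and 3.79% with ethanol. The part of these differences in the results below was not tested. Across sites, log2 levels with ethanol and at 0 h correlated at 0.979 in LNCaP and 0.989 in BicR. Between the lines the correlation was 0.943 at 0 h and 0.952 with ethanol.

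In the paired test over both lines, start sites rose more often than they fell with ethanol at 6 h. Of 13025 sites tested, 777 (5.97%) passed edgeR's quasi-likelihood test with Benjamini-Hochberg adjustment. Of these, 495 (3.8%) rose and 282 (2.17%) fell. The changes were small, with a median log2 change of 0.51 for the rising sites and -0.48 for the falling ones. Of the rising sites 31 were past 2-fold, a log2 change of 1, 228 had a log2 change of 0.5 to 1, and 236 a smaller one. Of the falling sites 8 were past 2-fold, 116 had a log2 change of that middle size, and 158 a smaller one. LNCaP moved further than BicR at the called sites, with medians of 0.66 against 0.34 for the rising sites and -0.55 against -0.38 for the falling ones. The median over all sites was -0.02 in LNCaP and 0.02 in BicR. The direction was the same in both lines at 490 of the 495 and 281 of the 282, which the test itself selects for.

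These calls rest on the spread between only 4 libraries. With 1 library per line and condition, the lines stood in for replicates and left 1 residual degree of freedom per site. The spread behind each p was pooled over sites (prior degrees of freedom 185.8), so a site could pass although its change differed much between LNCaP and BicR. In 6 other fits that keep all 4 libraries, 0 sites passed edgeR's test. In the 6 libraries of 0 h and ethanol at 6 h and 24 h, the unadjusted p was under 0.05 at 1900 sites and the smallest adjusted p was 0.14, and in the 6 with bicalutamide at 6 h in place of ethanol 24 h these were 1324 and 0.22. With the 10 libraries of 0 h and 6 h they were 820 and 0.73, without the BicR library of DHT with bicalutamide 1062 and 0.29, with all 18 libraries 1018 and 0.62, and without cell line as a block 187 and 1.00. In the fit of the 4 libraries the unadjusted p was under 0.05 at 2668 sites. DESeq2 called 33 sites on the same 4 libraries, 17 higher and 16 lower and all of them among the 777. Its calls thus held hardly any surplus of rising sites. It gave no adjusted p at 8838 of the 13025 sites, so this balance covers fewer sites than that of edgeR. In limma-trend 796 sites were called, of which 739 were among the 777. Each of the 777 sites kept its direction in these 6 fits, but they hold the same 4 libraries, so this was not an independent check. With 1 of the 4 libraries left out, 699 to 777 of the sites kept it. The lowest number was without LNCaP 0 h in the fit of 10 libraries. Without normalization beyond the implied library total, 202 sites passed and the rising share fell from 63.7 to 49.0%, and the median of all sites was then 0.06 in LNCaP and -0.11 in BicR. Directions below are relative to TMM scaling.

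**Figure D1:**
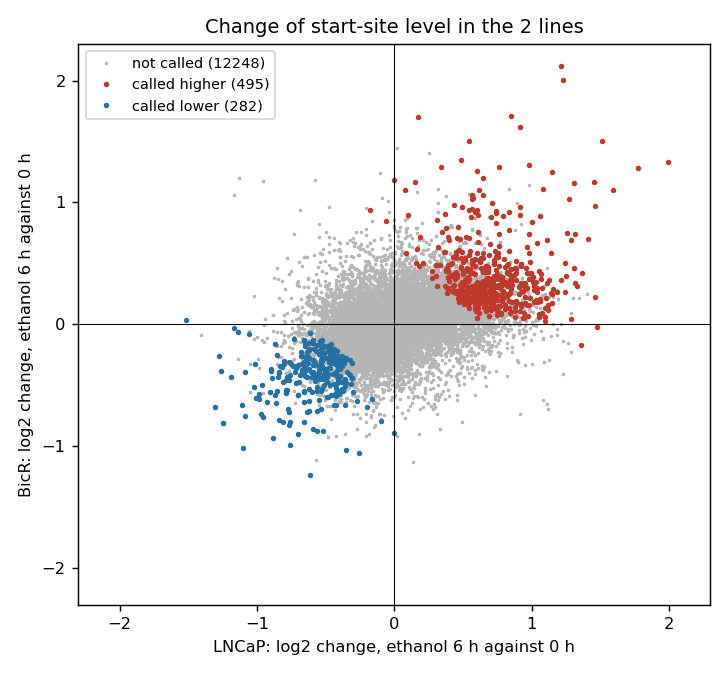
Log2 change of each of 13025 start sites with ethanol at 6 h against 0 h, LNCaP on the horizontal and BicR on the vertical axis, each from 1 library per condition. Red points are the 495 sites called higher and blue points the 282 called lower over both lines, and grey points are the 12248 sites not called. The called sites fill the upper right and the lower left, and the cloud is wider along the LNCaP axis (SD 0.35) than along the BicR axis (SD 0.25).

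The changes in LNCaP and BicR, which share no library, correlated across the 13025 sites at 0.388 (Pearson) and 0.405 (Spearman), a description over sites and not over replicates. The correlation was 0.244 for sites under 10 RPM on average, 0.339 from 10 to 30 RPM, 0.537 from 30 to 100 RPM and 0.635 for the 1875 sites at 100 RPM or more. It was thus higher where more tags lay behind each site. The share of sites that rose was 1.79, 2.20, 5.81 and 5.76% in these classes, and the share that fell was 0.60, 1.25, 2.17 and 6.19%. In the class of 100 RPM or more, 108 sites rose and 116 fell, so that the surplus of rising sites lay in the classes below it.

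Sites are ranked here among those called with a mean of at least 10 RPM and the same direction in both lines. The largest rise by fold was at chromosome 15, position 41245669 on the plus strand. It stood at 14.5 scaled RPM in LNCaP at 0 h and 35.1 with ethanol, and at 11.2 in BicR at 0 h and 51.8 with ethanol (64, 206, 82 and 315 tags). Both ethanol libraries were above both 0 h libraries. The log2 change was 1.79 (SE 0.17, adjusted p = 5.22e-17 by edgeR's quasi-likelihood test). Over 20 alternatives its adjusted p ranged from 3.66e-23 to 1 and it passed in 8, with a log2 change of 0.78 to 2.62, the lowest without BicR 0 h and the highest without LNCaP 0 h in the fit of 6 libraries with ethanol at 24 h. DESeq2 was not among these 20. At 6 h the libraries with DHT or bicalutamide alone were lower than ethanol in both lines. They stood at 12.4 and 10.4 in LNCaP and 22.5 and 10.4 in BicR. Of these, only DHT in BicR lay above the 0 h level of its line. With both agents the site stood at 22.2 in LNCaP and 22.7 in BicR, between 0 h and ethanol. At 24 h with ethanol the lines parted, with 15.2 in LNCaP and 87.7 in BicR. In the R1881 time course, which has other LNCaP libraries, the cluster of that name spans 310 bp from 41245582 to 41245891. It stood at 10.3 and 8.72 at 0 h, 45.0 and 29.1 at 3 h and 12.0 and 10.2 at 6 h of R1881 in replicates 1 and 2 (11 and 28, 21 and 64, and 2 and 12 tags).

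The second largest rise in this ranking was at chromosome 4, position 139163503 on the minus strand. Its level was 37.2 in LNCaP at 0 h and 151 with ethanol, and 56.5 in BicR at 0 h and 144 with ethanol (164, 887, 415 and 876 tags). The ethanol libraries did not overlap those of 0 h, and in LNCaP the ratio was 4.06 (exact binomial interval of the tags 3.43 to 4.82). The log2 change was 1.64 (SE 0.12, adjusted p = 1.12e-25 by edgeR's quasi-likelihood test). Its adjusted p ranged from 2.27e-37 to 1 over 21 alternatives, of which it passed 9, and its log2 change from 1.14 to 2.24. At 6 h it was also above 0 h in LNCaP with DHT (114) and bicalutamide (79.7), whereas in BicR these were 63.9 and 59.5, near the 0 h level. With both agents it stood at 181 in LNCaP and 128 in BicR. With ethanol for 24 h it stood at 111 in LNCaP and 289 in BicR.

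With a mean of at least 10 RPM and a shared direction, the largest fall was at chromosome 7, position 2756538 on the plus strand. It went from 42.0 to 19.1 in LNCaP and from 20.3 to 9.53 in BicR (185, 112, 149 and 58 tags). Both ethanol libraries were below both 0 h libraries, but the LNCaP level with ethanol lay close to the BicR level at 0 h. The log2 change was -1.12 (SE 0.17, adjusted p = 4.39e-07 by edgeR's quasi-likelihood test), and the site passed in 7 of 20 alternatives (adjusted p 2.61e-08 to 1). Its log2 change over these ranged from -1.53 to -0.66, the latter without LNCaP 0 h in the fit of 10 libraries. DESeq2 was not among the 20 here or at the chromosome 13 site below. With ethanol for 24 h the levels were 7.33 in LNCaP and 4.15 in BicR, the lowest of the 9 libraries in each line. At 6 h of DHT the site stood at 16.4 in LNCaP and 19.4 in BicR.

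The fourth named site met the rule of a shared direction only formally, on a LNCaP change of -0.00016. At chromosome 13, position 80055110 on the minus strand, BicR went from 60.6 to 32.2 (445 and 196 tags), while LNCaP had 3 tags at 0 h and 4 with ethanol, both 0.681 scaled RPM. The fit gave a log2 change of -0.90 (SE 0.19, adjusted p = 0.000539 by edgeR's quasi-likelihood test), which rests on BicR. It passed in 5 of 20 alternatives (adjusted p 0.00023 to 1) and its log2 change became 0.35 without BicR 0 h in the fit of 10 libraries.

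**Figure D2:**
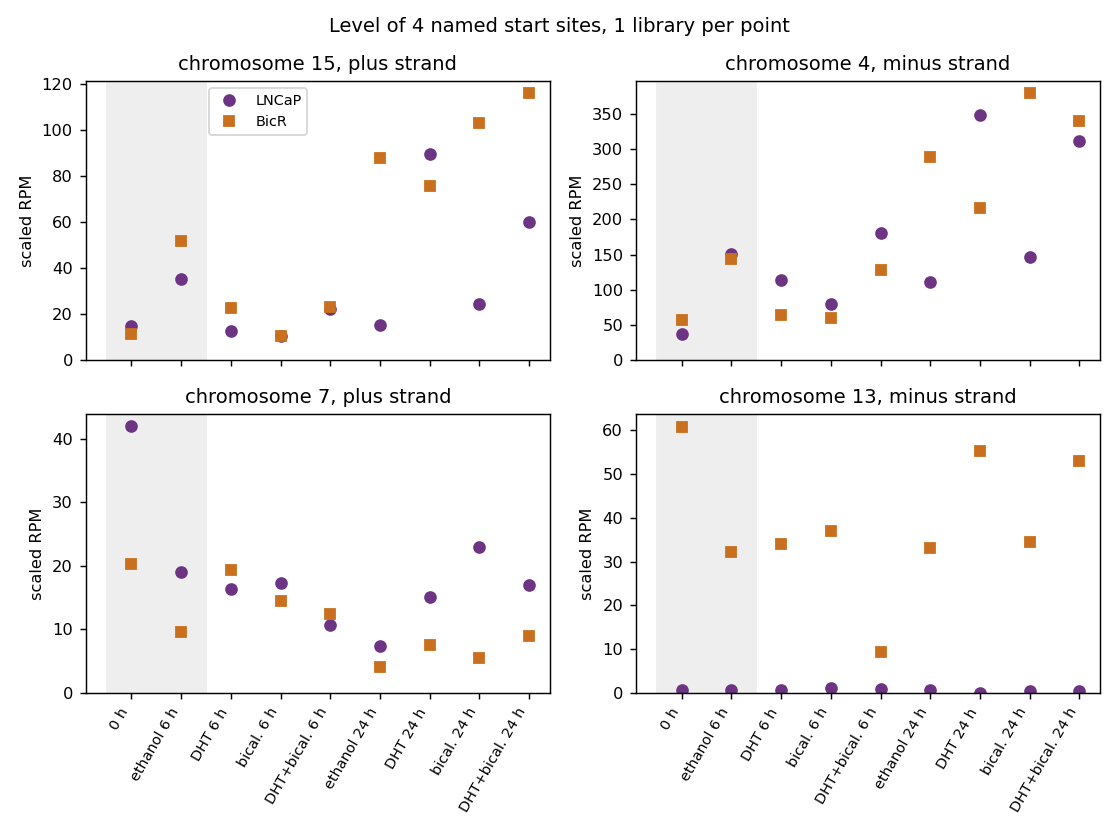
Scaled RPM of the 4 named start sites (chromosome 15, 4, 7 and 13) in the 9 LNCaP libraries (circles) and the 9 BicR libraries (squares), by treatment and time, 1 library per point. The shaded columns are the 0 h and ethanol 6 h libraries that were compared, and DHT and bicalutamide (bical.) are shown at 6 h and 24 h. The chromosome 15 and 4 sites are higher with ethanol than at 0 h in both lines, the chromosome 7 site is lower, and the chromosome 13 site has at most 1.04 scaled RPM in LNCaP.

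Some called sites lay next to each other. Sites on the same strand were joined when the next lay within 10000 bp, which gave 1218 neighbourhoods of 2 or more sites. In 29 of them 2 or more sites were called, with 17 all rising, 9 all falling and 3 mixed. Of the 2839 sites in the 1218 neighbourhoods 210 were called, 7.40% beside 5.97% of all sites tested, a difference that was not tested. Neighbouring sites cannot be taken as independent of each other.

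The neighbourhood with the most rising sites was on chromosome 1, plus strand, from 84624024 to 84640652, where 7 of 8 sites rose. In LNCaP the median change over the 8 was 0.98, and in BicR it was 0.26. The site at 84638704 went from 13.6 to 35.8 scaled RPM in LNCaP and from 22.1 to 27.8 in BicR (log2 0.78, SE 0.17, adjusted p = 0.000519 by edgeR's quasi-likelihood test). The site at 84625454 went from 32.9 to 59.2 and from 38.6 to 48.7 (log2 0.57, adjusted p = 0.00374 by the same test). At 84630006 LNCaP went from 14.5 to 42.2, while BicR stood at 40.6 and 39.9. The eighth site, at 84625977, had 7.95 and 10.6 in LNCaP and 6.13 and 7.89 in BicR and did not pass (adjusted p = 0.43 by edgeR's test). Levels at this locus were thus lower in LNCaP than in BicR at 0 h at 7 of the 8 sites, and the LNCaP libraries carried most of the rise.

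The mitochondrial plus strand had 7 rising sites of 33 and 0 falling, where 3.8% of all sites rose and 2.17% fell. Mitochondrial RNA is cut from long transcripts after transcription, so that a tag there need not mark a start of transcription. The site at position 5313 went from 20.0 to 38.5 scaled RPM in LNCaP and from 43.9 to 82.7 in BicR (log2 0.92, SE 0.14, adjusted p = 3.54e-07 by edgeR's quasi-likelihood test). The site at 9057 went from 25.4 to 33.7 and from 36.9 to 61.5 (log2 0.59, adjusted p = 0.00378 by the same test). The most abundant of the strand moved apart in the lines. Position 2205 went from 13680 to 11550 in LNCaP and from 11480 to 19450 in BicR, and did not pass (log2 0.26, adjusted p = 0.37 by edgeR's test). Over all 49 mitochondrial sites tested, 8 rose (16.3%) and 2 fell (4.08%), the median change was -0.12 in LNCaP with 16 sites higher, and 0.27 in BicR with 40 higher. This moved with the larger mitochondrial share of tags in the BicR ethanol library, given above, whose part was not tested. In BicR the share was also high with bicalutamide at 6 h (6.41%) and was 3.61% with ethanol at 24 h.

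Both neighbourhoods with the most falling sites lay on chromosome 19. On the minus strand from 24182837 to 24186209, 4 of 6 sites fell. The most abundant of them, at 24185033, went from 481 to 305 scaled RPM in LNCaP and from 379 to 293 in BicR (log2 -0.52, SE 0.10, adjusted p = 0.000191 by edgeR's quasi-likelihood test). The site at 24184653 went from 188 to 118 and from 113 to 94.2 (log2 -0.47, adjusted p = 0.00211 by the same test). In both lines ethanol was below 0 h at each of these. On the plus strand from 3976429 to 3982240, 3 of 4 sites fell, and the site at 3981370 went from 23.6 to 13.5 in LNCaP and from 27.3 to 19.6 in BicR (log2 -0.62, SE 0.17, adjusted p = 0.0117 by edgeR's test).

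The balance of rising and falling sites was not the same on every chromosome, given here as counts with no test. Over all sites 3.8% rose and 2.17% fell. On chromosome 19, 12 sites rose (1.25%) and 50 fell (5.23%) of 957 tested, and on chromosome 17 it was 6 (0.77%) and 25 (3.20%) of 781. On chromosome 5, 41 rose (6.61%) and 10 fell (1.61%) of 620. Chromosome 18, with 10 rising (4.81%) and 0 falling of 208, and chromosome 3, with 38 (5.39%) and 9 (1.28%) of 705, lay nearer to the share of rising sites overall. Chromosome 21 had the highest share of rising sites among the autosomes, 14 of 172 or 8.14%, with 5 falling. The median change of all tested sites on an autosome ran from -0.16 (chromosome 22) to 0.15 (chromosome 4) in LNCaP, and from -0.07 (chromosome 19) to 0.08 (chromosome 18) in BicR.

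Over the 22 autosomes the medians of the lines correlated at 0.970, given as a description of 22 points that share 4 libraries, and 18 autosomes had the same sign under TMM. The 4 autosomes with the lowest LNCaP medians (22, 19, 17 and 16) and the 4 with the highest (4, 13, 18 and 8) were picked after their values were seen. The former held 2668 tested sites, of which 33 rose (1.24%) and 99 fell (3.71%). The latter held 1363, of which 65 rose (4.77%) and 17 fell (1.25%). Of all sites tested 3.8% rose and 2.17% fell. In the ethanol libraries of 24 h, compared with the same 0 h libraries, the former had medians of -0.18 in LNCaP and -0.04 in BicR and the latter 0.19 and 0.12. With DHT at 6 h the medians were -0.18 and 0.16 in LNCaP but 0.03 and -0.04 in BicR. The medians of single chromosomes were computed under TMM only. Without normalization the median over all sites was 0.06 in LNCaP and -0.11 in BicR, so the signs given here depend on the scaling.

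**Figure D3:**
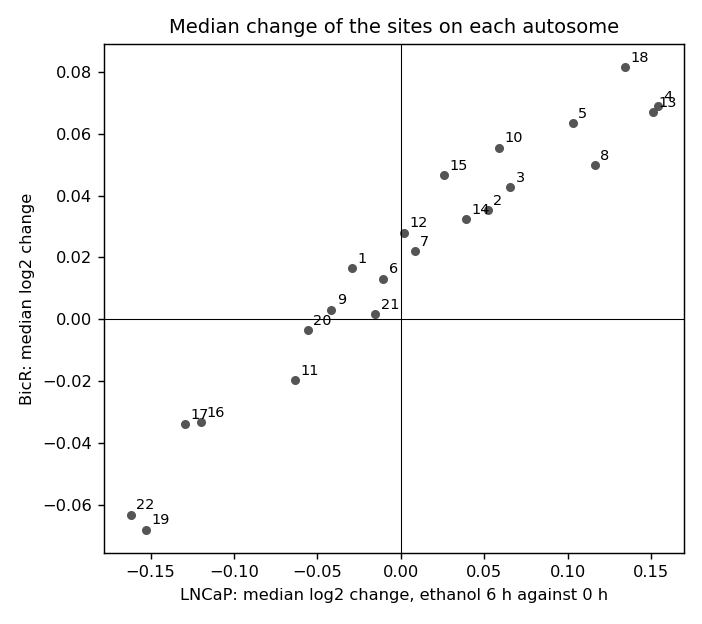
Median log2 change with ethanol at 6 h against 0 h of all tested sites on each of the 22 autosomes, LNCaP on the horizontal and BicR on the vertical axis. The axes have different scales, and numbers beside the points are chromosomes. The points run from chromosomes 22 and 19 at the lower left to 18, 4 and 13 at the upper right.

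The R1881 table gives each site as a cluster with a start and an end, and 8523 of the tested sites have a cluster of the same name. The width of that cluster was not used by the test. Rising sites had a median cluster width of 198.5 bp (338 sites), falling sites 146 bp (185 sites), and all tested sites 159 bp. In 4 classes of about equal size, from the narrowest clusters to the widest, the share that rose was 2.11, 2.92, 4.31 and 6.54%, and the share that fell was 3.04, 2.21, 1.83 and 1.60%. Wide clusters also had more tags, with median levels of 21.2 in the narrowest and 49.1 in the widest class. Among sites from 30 to 100 RPM, 3.53% rose and 2.92% fell at or below the median width, against 7.44% and 1.42% above it. At 100 RPM or more the shares were 4.31% and 9.57% against 5.64% and 4.28%. From 10 to 30 RPM they were 1.72% and 1.62% against 3.50% and 0.46%. Under 10 RPM the counts were too small to compare, with 8 rising and 1 falling against 6 and 0. Whether these shares differ was not tested.

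Promoters often start RNAs in both directions. Of the rising sites 123 had a tested site on the other strand within 1000 bp upstream, and 4 of these partners rose and 1 fell (3.25% and 0.81%). The median change of the partners was 0.17. Of the falling sites 57 had such a partner, of which 1 rose and 3 fell, with a median of -0.10. Over all 2999 tested sites with a partner the shares were 4.07% and 2.07% and the median -0.01. Whether these shares differ was not tested.

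Within each line alone there is no replicate and no test, and sites past 2-fold with at least 10 RPM in 1 of the libraries were counted as a description. In LNCaP 83 of 11768 sites stood more than 2-fold higher with ethanol (0.705%) and 21 lower (0.178%). In BicR 29 of 11572 stood higher (0.251%) and 4 lower (0.0346%). Of the higher sites 5 were on both lists, 6.02% of the LNCaP list and 17.2% of the BicR list, and 1 lower site was on both. In the other line, whose libraries did not choose them, 69 of the 83 LNCaP sites were higher. Their median log2 change in BicR was 0.23, beside 0.02 over all sites tested. In LNCaP 23 of the 29 BicR sites were higher, with a median of 0.57, beside -0.02 over all sites tested. The median level of the LNCaP list was 8.85 at 0 h and 21.6 with ethanol, so that most of these sites were weak ones.

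Beside the sites given above, chromosome 1 position 70876951 on the plus strand was the second largest rise in BicR among sites of 30 RPM or more. It went from 23.6 to 74.3 scaled RPM in BicR (173 and 452 tags), a ratio of 3.15 (exact binomial interval 2.64 to 3.78), and from 32.9 to 62.8 in LNCaP. At 6 h of DHT it stood at 35.1 in BicR and 36.9 in LNCaP, below ethanol in both lines, and with DHT and bicalutamide at 71.2 and 62.0, close to ethanol. The only such fall in BicR was at chromosome 16, position 2014948 on the plus strand, from 68.8 to 33.2 (505 and 202 tags), where LNCaP went from 36.1 to 28.1. In LNCaP the largest fall was at chromosome 12, position 57630887 on the minus strand, from 56.1 to 18.9 (247 and 111 tags), a ratio of 2.97 downward (2.36 to 3.75). BicR had 1 tag there in each library. The fit over both lines called this site too, with a larger fall than any site named from both lines (log2 -1.53, SE 0.23, adjusted p = 2e-07 by edgeR's quasi-likelihood test), which rests on LNCaP. The next fall in LNCaP was on the mitochondrial minus strand at 2227, from 45.6 to 19.4, with 37.2 and 27.3 in BicR. Each pair of libraries named here has intervals that cover counting error only.

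The difference between the lines in the change with ethanol was tested in a fit of 18 libraries, in which the other 7 conditions of both lines set the spread. Of 13214 sites, 0 passed (0.0%) by edgeR's quasi-likelihood test, with 239 at an unadjusted p under 0.05 and a smallest adjusted p of 1. DESeq2 and limma were not run on it. The 2 sites with the smallest p each way at a mean of 10 RPM or more are therefore given as values. At chromosome 5, position 40756019 on the minus strand, LNCaP went from 8.63 to 19.4 and BicR from 15.1 to 13.8, a difference of -1.35 for BicR minus LNCaP (SE 0.30, unadjusted p = 0.000948 by edgeR's test). At chromosome 1, position 89149956 on the plus strand, LNCaP went from 31.6 to 59.9 and BicR from 56.4 to 53.6 (difference -1.05, SE 0.25). In both places the LNCaP library of 0 h was the low value, and the other 3 libraries lay closer together. At chromosome 2, position 133038797 on the minus strand, LNCaP went from 42.5 to 18.7, and BicR stood at 19.1 and 18.2 (difference 1.06, SE 0.26). At chromosome 13, position 44716130 on the minus strand, LNCaP had 18.2 and 12.1, and BicR 11.04 and 18.7 (difference 1.30, SE 0.40).

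As a scale for the vehicle change, every other condition was set against the 0 h library of its line in the same way, so that all these counts share that library. In LNCaP the 83 higher and 21 lower sites with ethanol at 6 h stood beside 323 and 39 with DHT at 6 h, 261 and 16 with bicalutamide at 6 h, and 334 and 75 with both. Ethanol at 24 h gave 460 and 69. In BicR the 29 and 4 with ethanol stood beside 275 and 78 with DHT, 163 and 15 with bicalutamide and 763 and 79 with both at 6 h, and 142 and 43 with ethanol at 24 h. Ethanol at 6 h was therefore the library nearest to 0 h in both lines by the sum of these counts. The BicR library with both agents at 6 h held 4139807 tags, the fewest of the 18 libraries. At chromosome 12, position 57630887, it stood at 15.4 scaled RPM, where BicR had 0.14 at 0 h and 0.16 with ethanol. The part of such traits in its count of 763 was not tested.

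Set against the ethanol library of 6 h instead, the counts at 6 h were smaller in LNCaP, with 90 higher and 9 lower for DHT, 47 and 6 for bicalutamide and 120 and 34 for both. In BicR they were 275 and 138, 146 and 58, and 731 and 134. Ethanol at 24 h against ethanol at 6 h gave 21 and 8 in LNCaP and 32 and 14 in BicR. The choice of baseline thus moved the count for DHT at 6 h from 362 to 99 sites in LNCaP and from 353 to 413 in BicR. In LNCaP the log2 levels of ethanol at 24 h correlated with ethanol at 6 h at 0.988 and with 0 h at 0.963, and in BicR at 0.987 and 0.977.

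**Figure D4:**
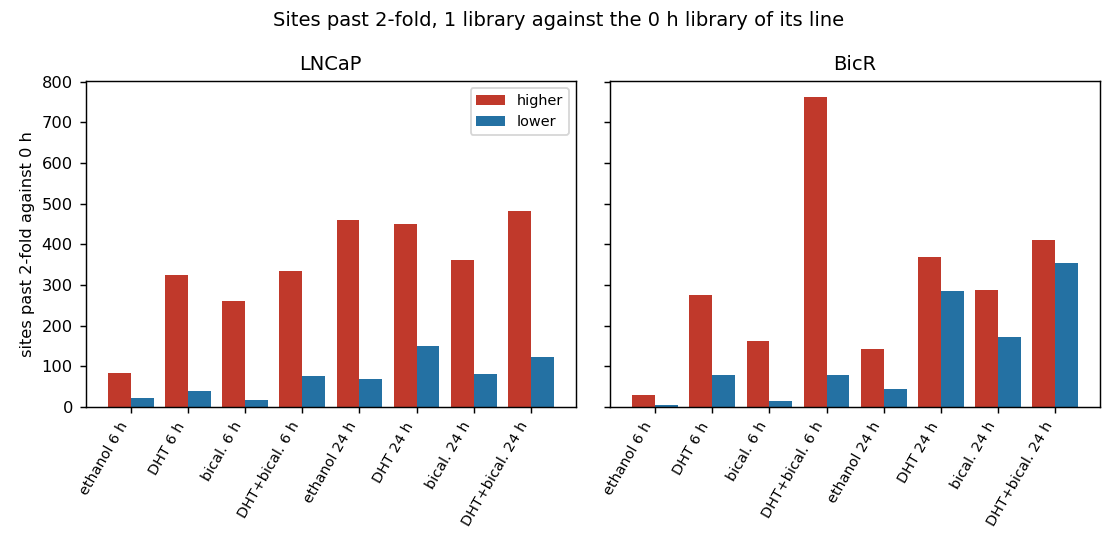
Number of sites more than 2-fold higher (red) or lower (blue) than the 0 h library of the same line, for each of the 8 treated libraries of LNCaP (left) and BicR (right), at least 10 RPM in 1 of the libraries. There is 1 library per bar pair and no error bar, and DHT with bicalutamide (DHT+bical.) at 6 h in BicR is the highest bar at 763. Ethanol at 6 h has the shortest red bar in both lines, 83 in LNCaP and 29 in BicR.

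The sites called over both lines were followed in the other libraries, which share the 0 h libraries with the comparison that chose them. In LNCaP the rising list had a median change of 0.66 with ethanol at 6 h, 0.70 with DHT, 0.68 with bicalutamide and 0.76 with both, and 0.83 to 0.93 in the 4 libraries of 24 h. In BicR the same list had a median of 0.34 with ethanol at 6 h, but -0.08 with DHT, 0.05 with bicalutamide and 0.07 with both, and 0.49 to 0.54 at 24 h. The falling list had medians of -0.37 to -0.38 in the 3 other 6 h libraries of LNCaP, and of -0.10 to -0.16 in those of BicR. At 24 h with ethanol the falling list stood at -0.69 in LNCaP and -0.45 in BicR. The ethanol libraries of 6 h also chose these sites, which by itself favours a larger distance from 0 h in them than in libraries that took no part. In BicR the 3 other libraries of 6 h were nearer to 0 h at these sites than the ethanol library was. The part of the choice of sites in this contrast was not tested. In LNCaP the rising list stood at 0.68 to 0.76 in the 3 other libraries of 6 h.

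**Figure D5:**
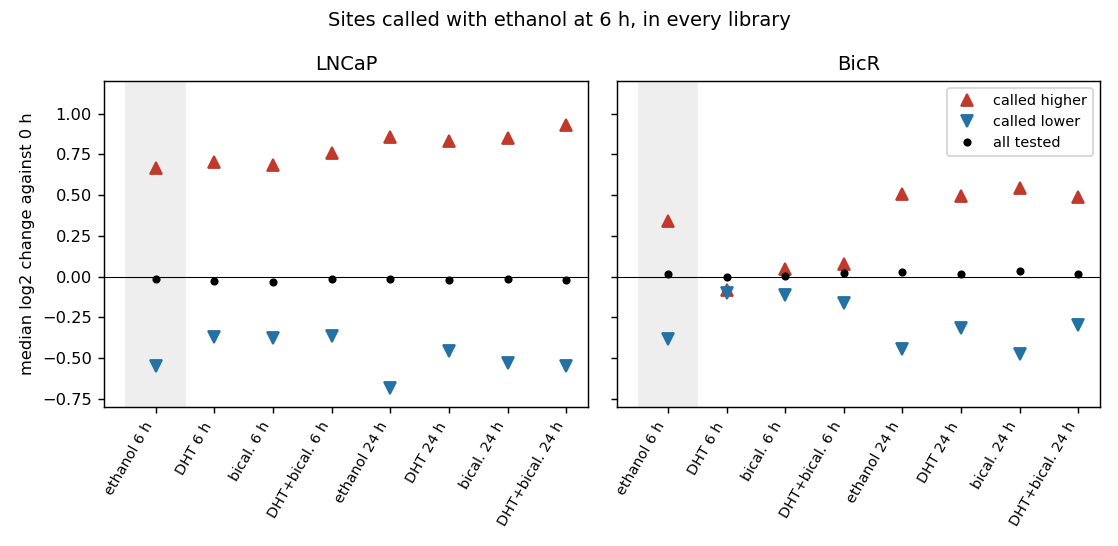
Median log2 change against the 0 h library of the line for the 495 sites called higher (red triangles), the 282 called lower (blue triangles) and all 13025 tested sites (black dots) in each treated library of LNCaP (left) and BicR (right). The shaded column is the comparison that chose the sites, and all points of a panel share the 0 h library. In LNCaP the red points lie between 0.66 and 0.93 throughout, and in BicR they lie between -0.08 and 0.07 in the 3 other libraries of 6 h.

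To see how androgen-responsive start sites stood with vehicle alone, sites that changed at 48 h of R1881 in LNCaP were looked up, a list from other libraries. Of 15999 sites in that table, 223 were called higher (1.39%) and 79 lower (0.494%) by edgeR's quasi-likelihood test, and 97 and 56 of them were tested here. The 97 rising sites had a median change with ethanol of 0.07 in LNCaP (56 higher) and 0.10 in BicR (59 higher). Of these, 14 were called higher with ethanol and 0 lower, 14.4% beside 3.8% of all sites. The 56 falling sites had medians of 0.01 in LNCaP (29 higher) and 0.09 in BicR (34 higher), and 7 were called higher (12.5%) and 1 lower. The medians of both lists lay within 0.10 of 0, and whether the called shares differ from that of all sites was not tested. With the replicate number as a block, the R1881 lists were longer. The 360 rising sites had medians of 0.11 and 0.09, with 44 called higher (12.2%) and 3 lower (0.83%). The 386 falling sites had medians of -0.02 and -0.02, with 26 called higher (6.74%) and 10 lower (2.59%). Of all sites tested, 3.8% were called higher and 2.17% lower.

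The reverse look-up used the R1881 time course, which has no vehicle library after 0 h. Of the sites called with ethanol, 338 rising and 185 falling ones have a cluster of that name there. At 3 h of R1881 the rising ones had a median change of 0.07 with 214 of 338 higher (63.3%). At 6 h it was 0.59 with 270 higher (79.9%). The falling ones had medians of -0.20 at 3 h with 51 of 185 higher (27.6%), and -0.41 at 6 h with 65 higher (35.1%). All 8523 shared sites had medians of -0.07 and -0.10, with 42.0% and 45.4% of them higher. The replicates differed, since at 6 h the rising list stood at 0.17 in replicate 1 and 0.82 in replicate 2, and replicate 1 held only 140956 tags. At 3 h the rising list stood at 0.19 and 0.00 and the falling list at -0.39 and 0.03 in replicates 1 and 2.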

How the data were processed

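Capped 5′ end tags of 4 libraries were compared, with 14 other libraries of the same table and the 14 of the R1881 time course as reference. The deposited tag counts are whole numbers per site without normalization, per the file headers, and the deposited RPM values are those counts scaled by the authors to a library total. Per the submitters' processing notes the build was hg19. The aligner and cluster caller are not given in the sources used here. The deposited counts were tested in R 4.3.3 with edgeR 4.0.16 (TMM, filterByExpr with a minimum count of 10, quasi-likelihood F test, cell line as a block, threshold 0.05 on the adjusted p), which tested 13025 of 13294 sites. The other 269 had too few tags. Alternatives used limma 3.58.1 and DESeq2 1.42.0, and the fit was tested on simulated data. Single-line changes are log2 ratios of scaled RPM with a pseudocount of 1, which understates the change of weak sites.

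Sites named from both lines had to pass, have a mean of at least 10 RPM and move the same way in both lines, by any amount (454 higher, 264 lower). The largest 2 each way are given. Sites from a single line needed 30 RPM in the higher library. The rule and the lists were chosen with earlier results of these data known. The gene lists and markers of the plan were not computed, since the files pair no gene names with the sites. Nothing in the labels says whether libraries come from separate cultures, so p-values measure only the spread between these libraries.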

Additional observations from a re-analysis of the deposited data

Results flagged for a closer look

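At 5 of the named sites the sign of the change differed between the lines, with 1 library per line and condition. In 4 of them the exact binomial interval of the BicR ratio spans 1, so that BicR shows no change beyond counting error, and the exception is the site at chromosome 13, where BicR had a ratio of 1.70 (1.27 to 2.29) and LNCaP of 0.67 (0.48 to 0.93). Values are the change in BicR minus that in LNCaP on the log2 scale. The difference was -1.50 at chromosome 1, 84630006 plus strand, where LNCaP rose in level from 14.5 to 42.2 scaled RPM and BicR stood at 40.6 and 39.9. It was 1.56 at chromosome 12, 57630887 minus strand, where BicR had 1 tag in each library, so that its sign in BicR rests on 2 tags. At chromosome 13, 44716130 minus strand, it was 1.26, at chromosome 5, 40756019 minus strand, -1.21, and at chromosome 1, 89149956 plus strand, -0.98. In the test of the difference over 18 libraries none of the 5 passed edgeR's quasi-likelihood test (adjusted p = 1 at each, unadjusted p 0.000948 to 0.80).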

How the results depend on the processing

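The count of 777 sites over both lines stayed within 1.5 times in 5 alternatives, at 784 with DESeq2's size factors, 612 without the filter, 589 at a mean of 10 RPM or more, 772 without sparse sites and 796 with limma-trend. It was 202 without normalization, 33 with DESeq2 (8838 adjusted p-values were NA), and 0 with 6, 9, 10 or 18 libraries or with no replicate block. Leaving out each of the 4 libraries in turn gave 0 (without LNCaP 0 h), 21 (LNCaP ethanol), 77 (BicR 0 h) and 42 sites (BicR ethanol) in the fit of 6 libraries with ethanol at 24 h, and 0 in that of 10. The fits of 6 and 9 libraries were chosen after the data were seen. The cause of these losses was not tested. The chromosome 13 site had 0.35 without BicR 0 h. Past 2-fold, the 104 LNCaP sites became 21 with a pseudocount of 5 and 38 at a minimum of 30 RPM, and the 33 BicR sites became 10 and 9, and 54 with no minimum. Without normalization the R1881 lists in BicR had medians of -0.0259 (rising) and -0.0463 (falling), beside -0.11 for all sites. In the same setting bicalutamide at 6 h in BicR had 115 sites in place of 178. Leaving out a replicate of the time course gave the rising list 0.0016 to 0.19 at 3 h and 0.17 to 0.82 at 6 h, and the falling list -0.39 to 0.0288 and -0.78 to -0.26. With the replicate block in the R1881 fit, the falling list went from 0.01 to -0.02 in LNCaP and from 0.09 to -0.02 in BicR. A single library per group limits every value here, and 3 tags set the lowest level that depth resolves.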
